A study of Homo sapiens with 18 samples.

Results

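Resmetirom (RES), an agonist of thyroid hormone receptor beta used as the positive control of the study, was given to fatty acid-loaded Hep3B cells, and its RNA profile was compared with that of the same cells given free fatty acids (FFA) alone. The comparison used 6 of the 18 RNA-seq libraries of the series, chosen by their titles: 3 of FFA with RES (RES_1 to RES_3) and 3 of FFA alone (Model_1 to Model_3). Hep3B is an established human hepatoma cell line. Untreated cells (Con, 3 libraries) and cells given FFA with the study's own compound FUCO at 0.5, 1 or 2 μM (3 libraries each) are set beside them. All 6 groups are the same cell line, so RES and Model differ by the agonist alone as far as the labels go. The FFA concentration, the RES dose and the treatment times of these libraries are not given in the sources used here. The replicates are called biological in the study's methods, but nothing says which cultures they came from, so p-values measure the spread between these libraries.

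Thyroid hormone enters hepatocytes through membrane transporters and binds nuclear receptors, of which the beta form, encoded by THRB, predominates in liver. The receptor sits on DNA with a retinoid X receptor partner, holds co-repressors when empty and recruits co-activators when the hormone or an agonist is bound. In liver this pathway is known for raising fatty acid oxidation and the turnover of cholesterol, which is why agonists selective for the beta form were developed for fatty liver disease.

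The 6 libraries held between 17346520 and 23083498 counts, and all 18 between 16916688 and 23083498. Of 36684 gene symbols, 14557 had enough counts to be tested, and they make up 99.9% of the total. Levels are given as CPM after TMM normalization, that is, counts scaled to a common library size, a scale on which a gene can be compared between libraries but not with another gene of different length. The RES libraries stood apart from all others on the first principal component of log2 CPM, which held 47.0% of the variance: they scored 61.6 to 64.3, and the other 15 libraries scored -23.7 to 0.297. The group of RES is the only label that separates them, and the mitochondrial share of counts was 6.17% to 7% with RES and 6.33% to 6.78% in the model. Hepatocyte markers were present in every library: all 12 were tested, and 1 rose and 9 fell at an adjusted p under 0.05, with their summed level between 58356 and 59199 CPM in the model and between 21172 and 21514 CPM with RES. Of the markers of other liver cells, ACTA2, COL3A1 and DES of stellate cells, CD163 and MARCO of macrophages, and CDH5, KDR, LYVE1 and CLEC4G of endothelium were at 0 in all 6 libraries. Of the stellate markers 6 were tested, with 2 higher and 1 lower, of the leukocyte markers 3, with 1 higher and 1 lower, and of the endothelial markers 1, which was lower. The summed stellate markers ran from 28.3 to 32.5 CPM in the model and from 21.5 to 25.8 CPM with RES, the leukocyte markers from 16.5 to 22.1 CPM in the model and from 17.5 to 19.2 CPM with RES, and the endothelial markers reached at most 1.52 CPM. Of 5 tested cholangiocyte markers, KRT19 and CFTR fell, and the others did not pass the test. In bulk libraries, fewer cells of a kind and less RNA per cell cannot be told apart.

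Among genes called changed with a log2 fold change over 1 in size, more were lower than higher with RES. The lower ones included the most abundant liver products. Genes were called differentially expressed (DEGs) where edgeR's quasi-likelihood test gave an adjusted p (Benjamini-Hochberg) below 0.05 and the log2 fold change was above 1 or below -1. Of the 14557 tested genes, 436 (3.0%) were DEGs higher with RES and 1007 (6.92%) were DEGs lower. By the adjusted p alone, 3545 genes (24.4%) rose and 3649 (25.1%) fell, and the median log2 fold change over all tested genes was 0.00233. These values are the background for the counts and medians of the gene lists further on. Of the genes past the adjusted p, 49.3% were higher, and of the DEGs 30.2%; with total counts in place of the TMM factors, which moved that median to 0.14, the shares were 66.6% and 41.2%. Large changes were mostly falls: 281 DEGs were lower and 85 higher by over 2 on the log2 scale, and 92 were lower and 23 higher by over 3. The libraries of the groups did not overlap for 431 of the 436 higher and 994 of the 1007 lower DEGs, where 32.2% of all tested genes lay wholly higher and 31.8% wholly lower with RES. The genes called lower took 14.38% ± 0.406 (SD, n = 3) of normalised counts in Con, 11.87% ± 0.0468 in the model and 3.428% ± 0.0347 with RES. The genes called higher took 0.4325% ± 0.012 in the model and 1.079% ± 0.0518 with RES. The shares of both sets follow in part from how they were chosen, and they are given as a description. ALB, the albumin gene, had the highest count in all 15 libraries without RES, at 2.22% to 4.04% of counts, while COX1 or FTL did in the RES libraries, at 1.05% to 1.26%.

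**Figure D1:**
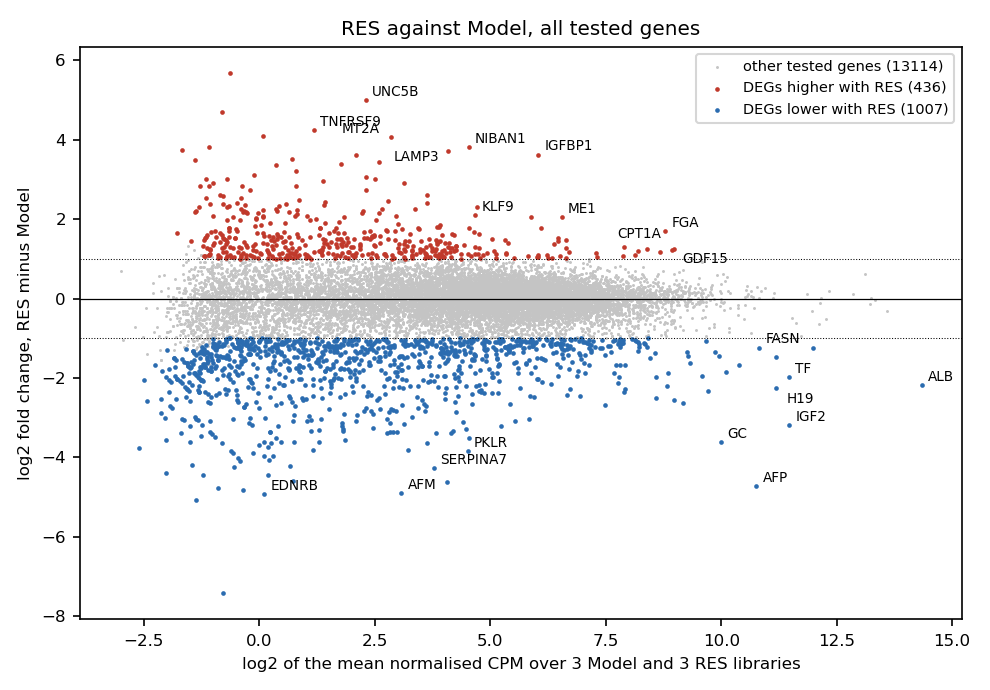
Log2 fold change of RES against the model (vertical axis) against mean level in log2 CPM over the 6 libraries (horizontal axis) for the 14557 tested genes, with the 436 higher DEGs in red and the 1007 lower DEGs in blue. The abundant end of the plot holds lower DEGs such as ALB, AFP and IGF2, and the higher DEGs sit mostly at low and middle levels.

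Known targets of the agonist's receptor were examined first. Of the thyroid hormone target genes listed, 12 were tested, and 3 rose and 5 fell, against the background of 24.4% and 25.1%. The 3 that rose were DEGs. KLF9, a transcription factor induced directly by thyroid hormone in many tissues, was at 9.32, 9.57 and 10.1 CPM in the model and at 44.5, 42 and 37.6 CPM with RES. It was 4.28-fold higher (log2 fold change 2.10 ± 0.10 SE, adjusted p = 2.12e-14), with no overlap between the groups, and Con libraries held 5.13 to 6.7 CPM. ME1, the cytosolic malic enzyme that supplies NADPH, rose from 35.5, 38.9 and 35.2 CPM to 155, 158 and 139 CPM (2.04 ± 0.12, adjusted p = 3.82e-13). CPT1A, which carries long-chain fatty acids into mitochondrial oxidation, rose from 182, 182 and 173 CPM to 434, 397 and 401 CPM (1.20 ± 0.07, adjusted p = 1.13e-12). For CPT1A the model was itself above Con, whose libraries held 103 to 106 CPM, so RES lay further from Con than FFA alone.

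Other listed targets fell or did not pass the test. SLC2A2, the hepatic glucose transporter, fell from 2.41, 2.39 and 2.22 CPM to 0.808, 0.969 and 0.327 CPM (-1.74 ± 0.34, adjusted p = 0.00014). NREP, a neuronal regeneration-related protein, fell by 1.15 on the log2 scale, and FURIN, a proprotein convertase, by 0.61. DIO1, the type I deiodinase and a classical hepatic target, stood at 0.658 to 1.08 CPM in the model and 0.373 to 0.808 CPM with RES (adjusted p = 0.414). HR, the hairless co-repressor, had an adjusted p of 0.107, and G6PC1, glucose-6-phosphatase, of 0.645. THRSP, PCK1 and SHBG, all hepatic genes that respond to the hormone in other settings, were too low to be tested. A p that misses the threshold does not show that these genes stayed the same.

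The receptor genes that passed the test fell, and the plasma carrier of the hormone fell most. THRB was at 37.2, 38.4 and 32.2 CPM in the model and 44.8, 43 and 36.9 CPM with RES (0.21 ± 0.09, adjusted p = 0.0639), with overlapping libraries, and it passed the test when RES_3 or Model_2 was left out (adjusted p = 0.0204 and 0.0497), in edgeR on the 6 libraries alone (0.0213) and with total counts (0.00284). THRA, the alpha receptor, fell by 0.49 on the log2 scale (adjusted p = 0.000388). RXRA, the retinoid X receptor that pairs with both, fell from 194, 179.7 and 184 CPM to 89.8, 82.6 and 83.3 CPM (-1.13 ± 0.10, adjusted p = 1.6e-09), whereas RXRB had an adjusted p of 0.235. SERPINA7, the thyroxine-binding globulin that carries the hormone in plasma, was at 25.6, 26.4 and 26 CPM in the model and at 1.21, 1.83 and 1.07 CPM with RES. It was 19.2-fold lower (-4.26 ± 0.18, adjusted p = 1.95e-15), the largest change among the thyroid genes tested. MED1, the mediator subunit that the active receptor recruits, rose by 0.34 (adjusted p = 0.000481), and NCOR1, the co-repressor, stood at 172 to 177 and 178 to 187 CPM (adjusted p = 0.504). Of the 15 tested transport, receptor and coregulator genes, 2 rose and 5 fell, beside 24.4% and 25.1% of all tested genes.

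**Figure D2:**
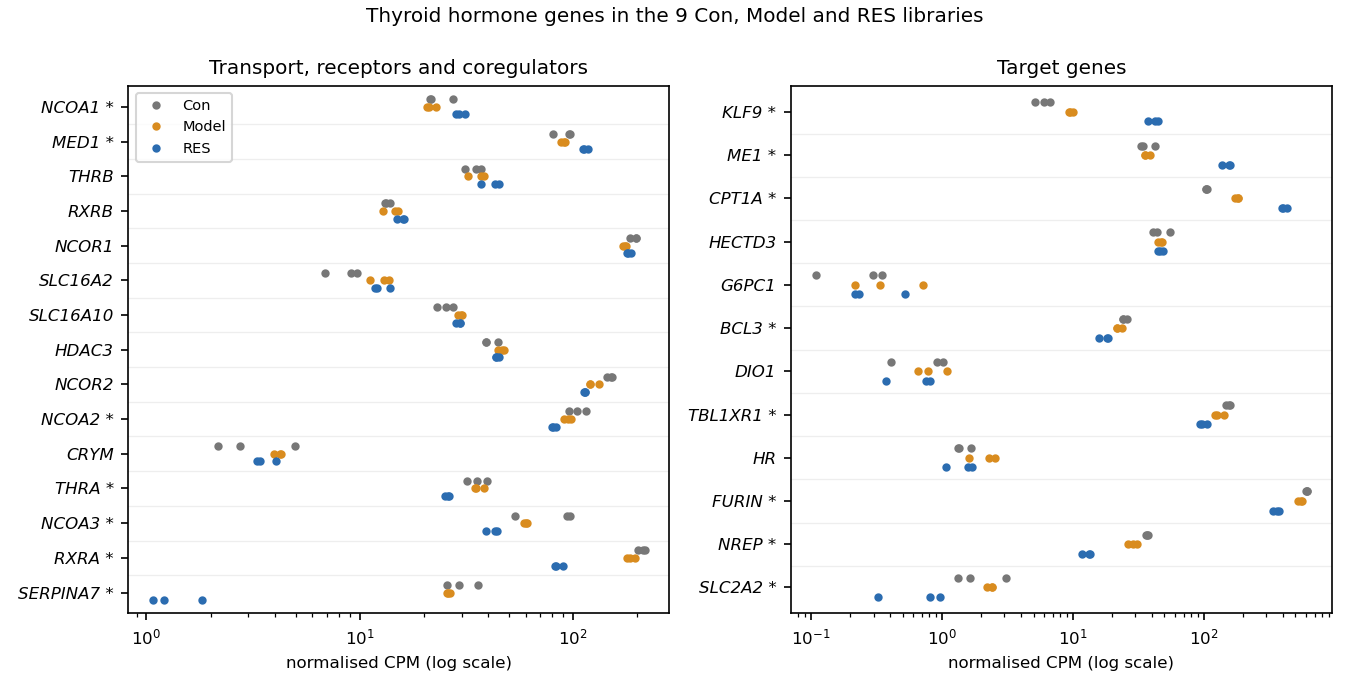
Levels of thyroid hormone receptor, transport and target genes in CPM on a log axis, 1 point per library, for Con, the model and RES; an asterisk marks an adjusted p under 0.05 for RES against the model. KLF9, ME1 and CPT1A sit above the model in all 3 RES libraries, and SERPINA7 and RXRA sit below it.

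The deepest loss was in the albumin gene family, the carrier proteins that fetal and adult hepatocytes secrete. All 4 members of the family fell, each as a DEG, and their median log2 fold change was -4.16. ALB, the main plasma carrier of fatty acids and hormones, was at 33619, 34276 and 33841 CPM in the model and at 7424, 7411 and 7747 CPM with RES. It was 4.5-fold lower (-2.17 ± 0.09, adjusted p = 1.95e-15). AFP, alpha-fetoprotein, the fetal counterpart of albumin and a marker of hepatoma cells, fell from 3389.6, 3260.2 and 3395 CPM to 87.7, 126 and 168 CPM, 26.4-fold lower (-4.72 ± 0.16, adjusted p = 7.02e-17). AFM, afamin, which carries vitamin E, fell from 16.3, 15.9 and 16.6 CPM to 0.485, 0.646 and 0.513 CPM, 29.7-fold lower (-4.89 ± 0.23, adjusted p = 1.49e-14). GC, the vitamin D-binding protein, fell from 1806, 1852 and 1966 CPM to 143, 164 and 155 CPM, 12.2-fold lower (-3.60 ± 0.11, adjusted p = 6.41e-18). In each of the 4 genes the 3 RES libraries lay far below all model libraries, and the replicates of a group sat close together except for AFP with RES. ALB, AFP and AFM are neighbours on chromosome 4 of GRCh38.p14, at 73404287-73421482, 73436221-73456174 and 73481745-73504001. The non-coding gene LINC02499, which follows AFM, had 18, 16 and 28 counts in the model libraries and 0 in each RES library, which allows up to 3 counts in each by counting error alone.

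The promoters of these 3 neighbours, 250 bases before each RefSeq gene start (GRCh38.p14), are shown because they share a motif. Capitals mark GTTAAT, found on either strand; the motif was chosen after the data were seen, and its share among all promoters is given further on.
ALB, chr4:73404037-73404286, plus strand: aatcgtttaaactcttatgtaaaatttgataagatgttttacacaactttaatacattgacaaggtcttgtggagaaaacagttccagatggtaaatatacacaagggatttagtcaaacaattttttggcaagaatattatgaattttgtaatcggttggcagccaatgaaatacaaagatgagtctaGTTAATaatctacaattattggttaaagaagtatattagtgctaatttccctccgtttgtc
AFP, chr4:73435971-73436220, plus strand: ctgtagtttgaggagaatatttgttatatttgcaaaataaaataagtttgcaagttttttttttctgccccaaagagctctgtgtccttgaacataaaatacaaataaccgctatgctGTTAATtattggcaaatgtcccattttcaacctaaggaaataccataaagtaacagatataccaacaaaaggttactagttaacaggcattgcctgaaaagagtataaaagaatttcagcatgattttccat
AFM, chr4:73481495-73481744, plus strand: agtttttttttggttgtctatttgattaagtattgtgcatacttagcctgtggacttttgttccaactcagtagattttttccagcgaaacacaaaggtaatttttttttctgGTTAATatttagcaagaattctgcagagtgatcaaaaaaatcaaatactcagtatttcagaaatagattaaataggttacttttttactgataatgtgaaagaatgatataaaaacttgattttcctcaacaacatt
Each of the 3 held a single match, which began 61 bases before the start in ALB, 132 in AFP and 137 in AFM. A match is a description of the letters and not of binding.

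**Figure D3:**
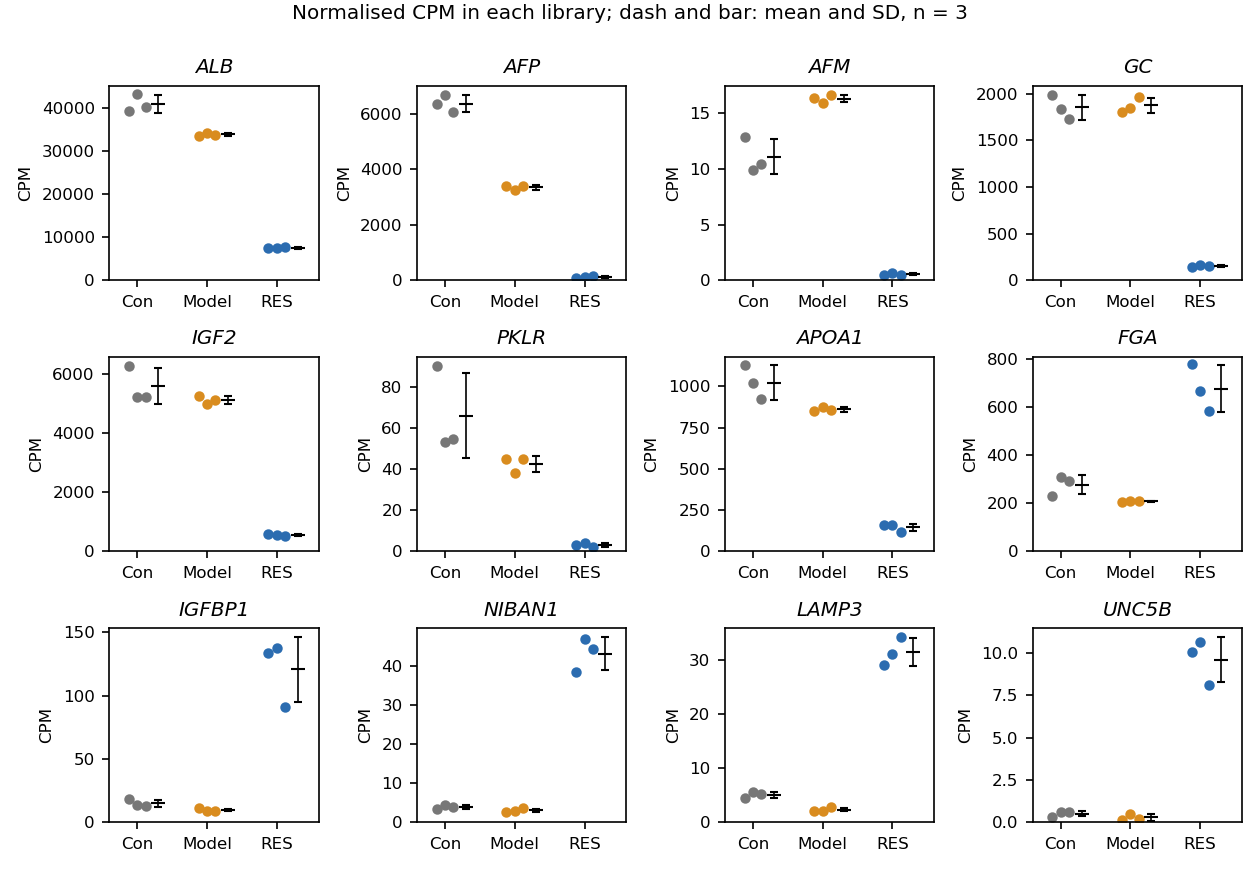
CPM of 12 genes in each library of Con, the model and RES; points are libraries, and dashes with bars are the mean ± SD (n = 3). ALB, AFP, AFM, GC, IGF2, PKLR and APOA1 drop with RES, and FGA, IGFBP1, NIBAN1, LAMP3 and UNC5B climb, with no overlap between RES and the model.

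APOA1 and its neighbours on chromosome 11 were strongly lower, and the structural protein of low-density particles less so. Of 16 tested members of the list, 1 rose and 12 fell, 7 of them as DEGs, with a median log2 fold change of -0.961 beside 0.00233 over all genes. APOA1, the main protein of high-density lipoprotein, was at 850.5, 876 and 856 CPM in the model and 161, 157 and 120.3 CPM with RES (-2.56 ± 0.14, adjusted p = 2.2e-13). APOC3, an inhibitor of lipoprotein lipase, fell from 26.3, 27.8 and 27.6 CPM to 6.34, 5.87 and 3.36 CPM (-2.39 ± 0.20, adjusted p = 3.85e-10). APOA5, an activator of that lipase, fell by 2.6. These genes lie together on chromosome 11, and APOA4 between them was tested but did not pass (-1.07, adjusted p = 0.161). APOH, beta-2 glycoprotein I, fell from 1409, 1322 and 1461 CPM to 286, 281 and 266 CPM (-2.33 ± 0.10, adjusted p = 5.93e-15).

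APOB, the structural protein of very low-density lipoprotein, fell from 5371, 5656 and 5179 CPM to 3716, 3492 and 3177 CPM (-0.64 ± 0.08, adjusted p = 2.75e-07). APOE, the ligand of remnant receptors, fell by 0.86 (adjusted p = 1.5e-07), while its neighbour APOC1 was the single member that rose (0.32 ± 0.09, adjusted p = 0.00399). APOA2, another protein of high-density lipoprotein, stood at 4638 to 5004 CPM in the model and 5403 to 5663 CPM with RES (adjusted p = 0.0693), so the apolipoproteins did not move as a block.

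Coagulation factors, complement and acute phase proteins, the other exports of the hepatocyte, fell in the larger part, with fibrinogen among the exceptions. Of 21 tested coagulation genes, 5 rose and 14 fell (median -1.08). Factor XI, encoded by F11, fell from 18.5, 18 and 16.8 CPM to 3.84, 3.71 and 4.06 CPM (-2.19 ± 0.14, adjusted p = 1.9e-12), and F12 from 55.2, 42.7 and 46 CPM to 12.1, 10.8 and 9.42 CPM (-2.15 ± 0.16, adjusted p = 5.85e-11). PROC, protein C, fell by 2.26, PLG, plasminogen, by 2.69, and F2, prothrombin, by 1.36. These are factors on the clotting, anticlotting and clot-dissolving sides of the system alike.

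FGA, FGB and FGG, the chains of fibrinogen, lie side by side on chromosome 4 and all rose. FGA was at 206, 209 and 210.4 CPM in the model and at 779, 665 and 584 CPM with RES (1.70 ± 0.11, adjusted p = 6.74e-12). FGG rose from 296, 296 and 306 CPM to 785, 727 and 609.7 CPM (1.24 ± 0.12, adjusted p = 9.21e-09). FGB rose by only 0.42 ± 0.11 (adjusted p = 0.00224), from 110.4 to 112 CPM in the model to 143 to 159 CPM. PROS1, the protein S cofactor of protein C, rose by 0.77, and F13B, a factor XIII subunit, by 2.14 from low levels, so protein C and its cofactor moved in opposite directions.

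Of 20 tested complement genes, 2 rose and 18 fell (median -1.18). C3, the central component, fell from 3536, 3257 and 3455 CPM to 1127, 1191 and 1402 CPM (-1.46 ± 0.09, adjusted p = 8.34e-13), and Con libraries held 1799.9 to 1885 CPM, so RES brought C3 from above to below the untreated level. C6, of the membrane attack complex, fell from 20.8, 21.7 and 26.2 CPM to 1.57, 1.88 and 2.05 CPM (-3.65 ± 0.17, adjusted p = 1.2e-14). C8B, of the same complex, fell by 3.16, and the regulator chains C4BPA and C4BPB by 2.47 and 1.87. The exceptions were C5, which rose by 0.56 (adjusted p = 5.57e-05), and MBL2, mannose-binding lectin, at under 2 CPM in every library (1.38 ± 0.36, adjusted p = 0.00272). C4A and C4B, which each fell by 1.19, are near-identical copies whose reads cannot be told apart here.

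Of 17 tested acute phase and plasma transport genes, 1 rose and 16 fell (median -1.29). ITIH1, a hyaluronan-binding serum protein, fell from 41.6, 42.1 and 36.7 CPM to 4.2, 4.63 and 3.45 CPM (-3.29 ± 0.23, adjusted p = 1.48e-11). HPX, hemopexin, fell by 2.66. TF, transferrin, fell from 4592, 4276 and 4600.4 CPM to 1239, 1157 and 1035 CPM (-1.97 ± 0.14, adjusted p = 1.39e-11), and AHSG, fetuin-A, from 5691, 5991 and 5535 CPM to 2683, 2596 and 2038 CPM (-1.24 ± 0.10, adjusted p = 1.43e-10). SERPINA1, alpha-1 antitrypsin, changed little beside these, by -0.49 (adjusted p = 5.49e-05). LCN2, lipocalin 2, was the member that rose, from 6.85, 4.06 and 6.66 CPM to 9.49, 12.4 and 19.4 CPM (1.23 ± 0.22, adjusted p = 5.15e-05), and FFA alone had already raised it above Con, whose libraries held 0.0578 to 0.418 CPM.

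The transcription factors that define hepatocytes fell less than their secreted products. Of 19 tested, 1 rose and 13 fell, 2 as DEGs, and the median was -0.48. NR1H4, the bile acid receptor FXR, fell from 23.6, 20.8 and 24.2 CPM to 5.41, 6.68 and 5.69 CPM (-1.96 ± 0.11, adjusted p = 6.82e-13). CEBPA, a factor that holds hepatocytes out of the cell cycle, fell from 179, 147 and 168 CPM to 76.7, 86.8 and 70 CPM (-1.08 ± 0.14, adjusted p = 7.76e-07). PROX1, needed for liver outgrowth, fell by 0.97 and ONECUT1 by 0.73. HNF4A, the factor on which much of the hepatocyte program rests, was at 349, 318 and 337 CPM in the model and 279, 253 and 227 CPM with RES (-0.40 ± 0.10, adjusted p = 0.00219). FOXA1 fell by 0.48, and FOXA2 did not pass the test (-0.17 ± 0.09, adjusted p = 0.124).

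Enzymes of drug, steroid and bile acid metabolism changed in both directions. Of 15 tested cytochrome P450 and xenobiotic receptor genes, 1 rose and 7 fell, beside 24.4% and 25.1% of all tested genes. CYP3A7, the fetal form of the main drug-metabolising P450, was at 3.24, 2.95 and 3.25 CPM in the model and 0.0808, 0.108 and 0.187 CPM with RES (-4.60 ± 0.55, adjusted p = 2.36e-07). Con libraries held 11 to 22.7 CPM, so FFA alone had lowered it already (-2.47, adjusted p = 3.93e-07). CYP1A1, the target of the aryl hydrocarbon receptor, was the member that rose, from 11.9, 11.6 and 9.37 CPM to 37.6, 28.1 and 17 CPM (1.33 ± 0.26, adjusted p = 0.000134). CYP3A4 and CYP2E1 were too low to be tested.

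Of 15 tested conjugation enzymes, 5 rose and 5 fell, where 24.4% of all tested genes rose and 25.1% fell. UGT1A1, which conjugates bilirubin, rose from 1.26, 0.946 and 1.14 CPM to 3.88, 5.33 and 3.55 CPM (1.91 ± 0.23, adjusted p = 2.17e-07), and UGT2B10 rose by 2.19. UGT2B7, a glucuronosyltransferase for steroids and drugs, fell from 48, 46.3 and 54.3 CPM to 21, 20.7 and 18.7 CPM (-1.30 ± 0.12, adjusted p = 1.83e-09), and SULT2A1, which sulphates steroids, fell by 1.23. The UGT1A genes share exons and the UGT2B genes are close copies, so reads may be split among them.

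Of 11 tested bile acid genes, 3 rose and 6 fell, beside 24.4% and 25.1% of all tested genes. BAAT, which joins bile acids to glycine and taurine, fell from 13.4, 20.2 and 13.2 CPM to 2.22, 2.8 and 5.22 CPM (-2.20 ± 0.30, adjusted p = 1.51e-06). SLC51B, a chain of the basolateral bile acid exporter, rose from 1.43, 1.89 and 2.38 CPM to 5.57, 4.68 and 4.48 CPM (1.37 ± 0.20, adjusted p = 2.97e-06), which was near its level in Con (3.24 to 5.02 CPM). CYP7A1, the rate-limiting enzyme of bile acid synthesis, was at or near 0 in all 6 libraries.

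Amino acid catabolism fell in the main. Of 21 tested urea cycle and amino acid genes, 5 rose and 11 fell, 9 as DEGs. HAL, histidine ammonia-lyase, fell from 177, 179.7 and 168 CPM to 41.8, 35.8 and 29.6 CPM (-2.29 ± 0.11, adjusted p = 3.97e-14). AGXT, which detoxifies glyoxylate, fell by 3.34 and GPT, alanine aminotransferase, by 2.26. CPS1, which opens the urea cycle, fell by 2.07 from levels under 4 CPM, and ARG1, which closes it, by 1.43. TDO2, tryptophan dioxygenase, had 15, 10 and 12 counts in the model libraries and 0, 1 and 1 with RES.

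Growth factor and glucose genes held some of the widest changes in the data. IGF2, insulin-like growth factor 2, a fetal growth factor that hepatoma cells often keep, was at 5265, 4996 and 5110.4 CPM in the model and 598, 545 and 537 CPM with RES. It was 9.15-fold lower (-3.19 ± 0.13, adjusted p = 1.95e-15). H19, the imprinted non-coding neighbour of IGF2 on chromosome 11, fell from 3888, 3481 and 4187 CPM to 811, 815 and 788 CPM (-2.26 ± 0.11, adjusted p = 1.81e-14). MIR483 and IGF2-AS lie within or opposite IGF2, fell by 2.73 and 3.36, and cannot be told apart from it without the strand of the reads. IGFBP1, which binds insulin-like growth factors and is raised in fasting and amino acid shortage, went the other way, from 11.1, 9.07 and 9.26 CPM to 134, 138 and 91.5 CPM, 12.3-fold higher (3.62 ± 0.20, adjusted p = 2.83e-13). GPC3, a surface proteoglycan of hepatoma cells, fell from 1677, 1728 and 1743 CPM to 489, 477 and 466 CPM (-1.85 ± 0.08, adjusted p = 1.55e-15).

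PKLR, the liver pyruvate kinase, fell from 44.9, 38.1 and 44.9 CPM to 2.99, 3.93 and 2.1 CPM, 14.3-fold lower (-3.84 ± 0.23, adjusted p = 1.13e-12). PKM, the form used by most other cells, was at 400.3 to 431 CPM in the model and 476 to 504 CPM with RES (0.24 ± 0.11, adjusted p = 0.06), and it passed the test on the 6 libraries alone (0.000183 in edgeR and 1.85e-06 in DESeq2). Of 24 tested glycolysis and hypoxia genes, 9 rose and 6 fell, where 24.4% of all tested genes rose and 25.1% fell. PDK4, which shuts pyruvate out of the mitochondrial cycle when fat is burned and was counted with the oxidation genes, rose from 11.1, 11.4 and 11.5 CPM to 27.1, 26.7 and 26.4 CPM (1.24 ± 0.10, adjusted p = 4.87e-10), above a Con level of 4.05 to 4.65 CPM. CA9 and NDRG1, both known from hypoxia, fell by 3.13 and 1.76. Of the 24 tested glycolysis and hypoxia genes, however, 16 had a log2 fold change above 0 (median 0.172).

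Of 11 tested gluconeogenesis and glycogen genes, 2 rose and 8 fell. GCKR, the inhibitor of glucokinase, fell by 1.84 and PPP1R3C, a glycogen-targeting phosphatase subunit, by 1.60. The 2 that rose were IGFBP1, which was listed here with IGF2, and PYGL, the liver glycogen phosphorylase, by 0.47 (adjusted p = 6.25e-06). PCK2, the mitochondrial phosphoenolpyruvate carboxykinase, which was listed with the ATF4 targets, rose from 96.2, 103 and 96.1 CPM to 217, 229.8 and 203 CPM (1.14 ± 0.11, adjusted p = 9.7e-09).

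Cholesterol synthesis fell along nearly the whole pathway. Of 20 tested enzymes, none rose, 18 fell and 5 were DEGs, with a median of -0.783, where 25.1% of all tested genes fell. All 20 had their RES libraries wholly below the model, as did 31.8% of all tested genes. HMGCS1, which makes the precursor HMG-CoA, fell from 1391, 1485 and 1491 CPM to 505, 504 and 607 CPM (-1.43 ± 0.10, adjusted p = 1.38e-11). LSS, which closes the sterol rings, fell from 555, 564 and 509 CPM to 200.4, 197 and 235 CPM (-1.36 ± 0.10, adjusted p = 1.03e-10). SQLE fell by 0.78 and DHCR7, a late reductase, by 0.27, while CYP51A1 and PMVK did not pass the test (adjusted p = 0.213 and 0.0839).

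FFA alone had already lowered HMGCS1 against Con, where 8.43% of all tested genes rose and 9.12% fell in the model. HMGCS1 was at 1778 to 2402 CPM in Con and 1391 to 1491 CPM in the model (-0.56, adjusted p = 0.000208), so the RES libraries lay further below Con (-2, adjusted p = 2.49e-14). Over all tested genes, 28.8% rose and 28.5% fell in RES against Con.

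Receptors and regulators of cholesterol uptake followed in smaller steps: of 14 tested, 3 rose and 9 fell. SREBF2, the factor that drives the cholesterol genes, fell by 0.49, INSIG1, which retains it, by 0.57, and STARD4, a sterol transfer protein, by 0.78. VLDLR, a lipoprotein receptor listed with the ATF4 targets, rose by 1.20 (adjusted p = 1.67e-09). Of 7 tested LXR targets, 2 rose and 5 fell, beside 24.4% and 25.1% of all tested genes. ABCA1, the cholesterol exporter, fell from 88.2, 84.4 and 79.7 CPM to 41.4, 34.6 and 33.4 CPM (-1.20 ± 0.09, adjusted p = 5.73e-11), and ABCG8, of the biliary sterol exporter, fell by 1.83.

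Fatty acid synthesis genes fell in the main. Of 16 tested genes, 2 rose and 11 fell, 3 as DEGs (median -0.569). FASN, fatty acid synthase, fell from 2634, 2663 and 2339 CPM to 1089, 1053 and 1101 CPM (-1.24 ± 0.12, adjusted p = 1.15e-08). SREBF1, the factor behind lipogenesis, fell from 309, 316 and 278 CPM to 137, 144 and 127 CPM (-1.15 ± 0.11, adjusted p = 8.72e-09). SCD, which makes monounsaturated fatty acids, fell from 4346, 4744 and 4332 CPM to 2209.6, 2279.7 and 2485 CPM (-0.94 ± 0.09, adjusted p = 1.93e-09), and PNPLA3, a lipid droplet protein under SREBF1, by 1.54. ACACA, acetyl-CoA carboxylase, fell by only 0.25 (adjusted p = 0.0364), a call that was lost whichever of the 6 libraries was left out (adjusted p 0.055 to 0.0903). The 2 that rose were FADS3, a desaturase family member, by 0.32 (adjusted p = 0.0254, and 0.0557 to 0.115 without RES_1, RES_2, Model_2 or Model_3) and ELOVL5, which lengthens polyunsaturated fatty acids, by 0.37 (adjusted p = 0.00276). ME1, which supplies NADPH and was described with the thyroid targets, is not on this list.

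**Figure D4:**
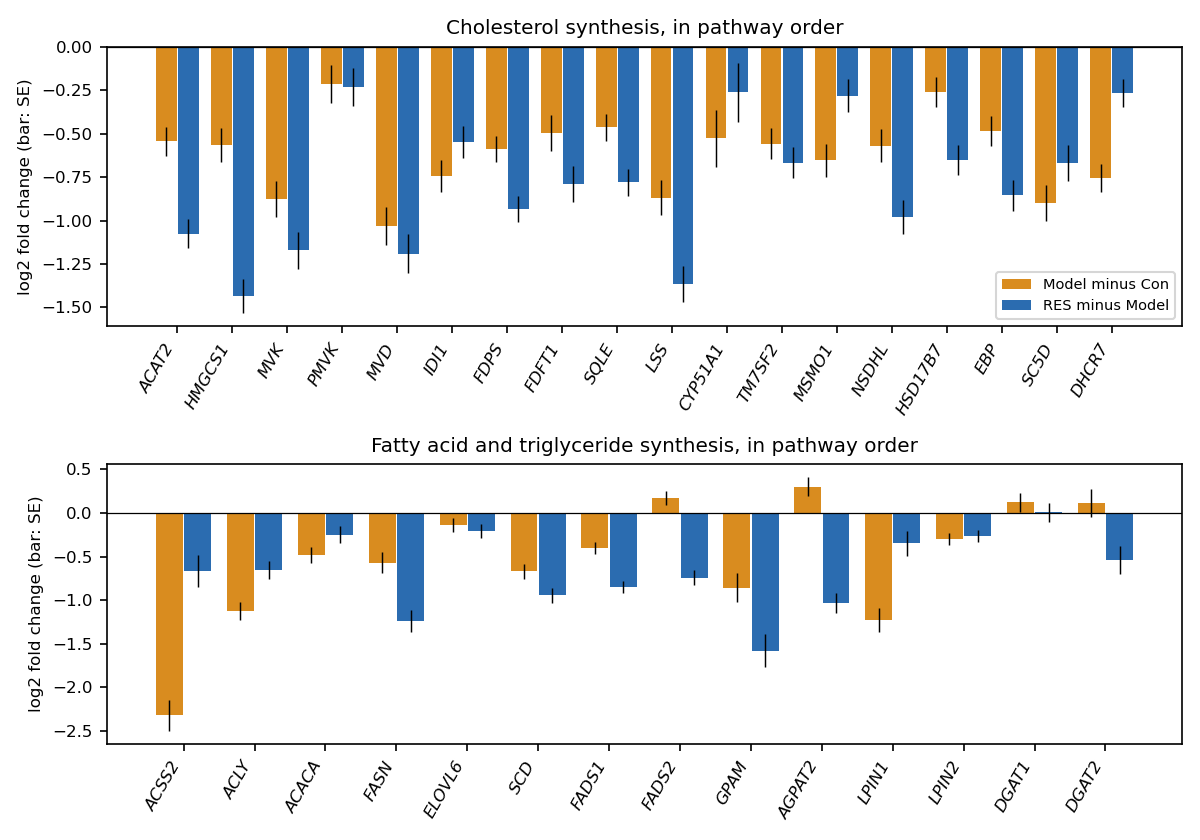
Log2 fold changes (bars, with whiskers for the SE) for genes of cholesterol synthesis and of fatty acid and triglyceride synthesis, in orange for the model against Con and in blue for RES against the model; both contrasts share the model libraries. Most blue bars lie below 0, including HMGCS1 at -1.43, FASN at -1.24 and GPAM at -1.58.

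Triglyceride synthesis fell in part: of 8 tested genes, none rose and 5 fell. GPAM, the mitochondrial acyltransferase that starts the pathway, fell from 25.1, 25 and 24.5 CPM to 7.75, 10.3 and 7.09 CPM (-1.58 ± 0.19, adjusted p = 1.66e-07). AGPAT2, the next acyltransferase, fell by 1.03, and DGAT2, which makes the triglyceride, by 0.54 (adjusted p = 0.00754). Uptake and activation genes gave 6 higher and 4 lower of 13 tested, where 24.4% of all tested genes rose and 25.1% fell. FABP1, the liver fatty acid-binding protein, fell from 923, 904 and 881 CPM to 313, 321 and 366 CPM (-1.44 ± 0.11, adjusted p = 8.81e-11), and ACSL4, which activates arachidonic acid, by 1.34. ACSL1 rose by 0.37 (adjusted p = 0.00187), ACSL5 by 1.22 and SLC27A2, a fatty acid transporter, by 0.78.

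Oxidation and PPAR target genes gave 4 higher and 10 lower of 27 tested (median -0.0035), beside 24.4% and 25.1% of all tested genes. CPT1A, described above, was counted with the thyroid targets, and the riser of greatest size here was ANGPTL4, an inhibitor of lipoprotein lipase, from 2.8, 2.73 and 2.82 CPM to 9.53, 8.02 and 7.7 CPM (1.60 ± 0.22, adjusted p = 1.84e-06). PPARGC1A, the co-activator of mitochondrial genes, rose from 9.21, 10.1 and 10.6 CPM to 17.8, 21.6 and 19.4 CPM (0.97 ± 0.13, adjusted p = 1.31e-06). BDH1, an enzyme of ketone bodies, fell by 3.11. CREB3L3, a liver factor of fasting metabolism, was at 17.6 to 29.6 CPM in Con, rose to 65.4 to 82.6 CPM with FFA alone and was at 18.8 to 22.4 CPM with RES (-1.86 ± 0.16, adjusted p = 1.16e-09). PPARA itself fell by 0.27 (adjusted p = 0.0085, and 0.0795 without RES_3).

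Of 17 tested genes that the study names, several of them in the lists above, 4 rose and 10 fell. Lipid droplet genes gave 3 higher and 3 lower of 15 tested, shares no higher than the 24.4% and 25.1% of all tested genes. PLIN2, the coat protein that rises with stored fat, was at 386 to 409 CPM in Con, at 817, 893 and 829.5 CPM in the model and at 821, 786 and 768 CPM with RES (-0.10 ± 0.08, adjusted p = 0.325). The 2 groups overlapped, and both lay above Con (1.09 for the model, adjusted p = 1.48e-09, and 0.99 for RES, adjusted p = 1.38e-10). PLIN5 and PLIN4 fell by 1.38 and 1.02, and G0S2, the inhibitor of the main triglyceride lipase, rose from 0.274, 0.222 and 0.162 CPM to 2.06, 2.69 and 2.19 CPM (3.35 ± 0.33, adjusted p = 8.61e-09). PNPLA2, the lipase itself, stood at 95.6 to 105 and 98.2 to 113 CPM (adjusted p = 0.377).

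The integrated stress response, in which the factor ATF4 raises amino acid uptake and synthesis, was the list with the most higher members. Of 32 tested genes, 24 rose, 9 as DEGs, and 3 fell, with a median of 0.708 against the background of 24.4% higher. ALDH1L2, a mitochondrial folate enzyme, rose from 0.713, 0.556 and 0.487 CPM to 5.61, 6.84 and 6.3 CPM (3.40 ± 0.21, adjusted p = 1.37e-12). STC2, stanniocalcin 2, rose from 29.8, 31 and 31.8 CPM to 100.2, 111 and 107 CPM (1.78 ± 0.09, adjusted p = 1.18e-13). SLC7A11, the cystine transporter, rose from 48.9, 57.2 and 53.5 CPM to 143, 158 and 139 CPM (1.46 ± 0.10, adjusted p = 1.44e-11), and its partner chain SLC3A2 by 1.25. GDF15, a stress-induced hormone, rose from 274, 319 and 289 CPM to 755, 712 and 577 CPM (1.21 ± 0.16, adjusted p = 9.2e-07).

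Enzymes of serine and asparagine synthesis rose in smaller steps, among them PSAT1 by 0.95, PHGDH by 0.60 and ASNS from 5.04, 5.62 and 4.33 CPM to 9.53, 8.08 and 7.51 CPM (0.75 ± 0.15, adjusted p = 0.000256). CHAC1, which degrades glutathione, rose from 56.8, 62.5 and 60.3 CPM to 106, 119 and 111 CPM (0.90 ± 0.11, adjusted p = 2.61e-07). Other known members did not follow. The transcript of ATF4 itself stood at 756 to 792 and 702 to 759 CPM (adjusted p = 0.211), DDIT3, the death-linked factor CHOP, at 29.2 to 31.8 and 29.1 to 34.8 CPM (adjusted p = 0.423), and ATF3, listed with the immediate early genes, fell by 0.45 (adjusted p = 0.00372).

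Of 25 list promoters matched in RefSeq, 5 held the ATF4 element TGATGNAA on either strand, and ASNS and CHAC1 are shown with the element in capitals, since both rose.
ASNS, chr7:97872409-97872658, minus strand: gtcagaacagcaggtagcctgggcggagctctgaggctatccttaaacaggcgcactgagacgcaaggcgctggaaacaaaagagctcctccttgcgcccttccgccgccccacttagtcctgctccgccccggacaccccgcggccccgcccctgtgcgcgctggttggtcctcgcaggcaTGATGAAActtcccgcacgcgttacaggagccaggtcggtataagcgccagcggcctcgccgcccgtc
CHAC1, chr15:40953221-40953470, plus strand: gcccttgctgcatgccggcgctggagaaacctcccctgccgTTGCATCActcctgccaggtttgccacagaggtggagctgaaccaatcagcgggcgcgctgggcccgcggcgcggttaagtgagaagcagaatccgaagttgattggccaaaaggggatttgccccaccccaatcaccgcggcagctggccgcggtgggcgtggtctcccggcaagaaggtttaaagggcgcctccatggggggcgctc
The match began 68 bases before the start in ASNS and 209 in CHAC1, where it lies on the opposite strand and reads as the reverse complement. The others with a match were SLC3A2, SLC7A1 and AARS1, and of these AARS1 did not pass the test (0.13 ± 0.08, adjusted p = 0.166).

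NRF2 targets, which answer oxidative and electrophilic stress, rose as well: 15 of 22 tested were higher and 2 lower (median 0.615). SRXN1, sulfiredoxin, rose from 4.5, 3.34 and 3.79 CPM to 14.1, 15.1 and 9.98 CPM (1.75 ± 0.22, adjusted p = 5.45e-07). TXNRD1, thioredoxin reductase, rose from 243, 259 and 256 CPM to 593, 582 and 517 CPM (1.16 ± 0.10, adjusted p = 1.32e-09). GCLM and GCLC, the subunits of the enzyme that starts glutathione synthesis, rose by 1.14 and 1.08, GCLM from 19.8, 18.7 and 18.8 CPM to 44.5, 46.9 and 34.5 CPM. HMOX1, heme oxygenase, stood at 22.5 to 25.7 and 22.4 to 33.5 CPM (adjusted p = 0.124, and 0.0206 without RES_3), and AKR1C1 fell by 1.10. SLC7A11 is on this list and on the ATF4 list. The promoter of GCLM is shown with the NRF2 element TGACNNNGC in capitals, on the opposite strand.
GCLM, chr1:93909431-93909680, minus strand: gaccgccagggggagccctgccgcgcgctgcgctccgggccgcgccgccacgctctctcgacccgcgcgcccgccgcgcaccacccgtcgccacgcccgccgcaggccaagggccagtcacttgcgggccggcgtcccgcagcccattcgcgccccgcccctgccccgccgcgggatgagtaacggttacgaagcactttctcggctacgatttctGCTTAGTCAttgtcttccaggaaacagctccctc
The element began 34 bases before the start, and 4 of 16 matched list promoters held it.

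Of 22 tested genes of the endoplasmic reticulum stress response, 10 rose and 3 fell (median 0.157). ATF6, a sensor of unfolded proteins, rose from 65.7, 66.6 and 65.5 CPM to 136, 138 and 129.6 CPM (1.03 ± 0.08, adjusted p = 1.73e-10), and ERN1, another sensor, by 0.64. HSPA5, the chaperone most used as a marker of this response, rose by 0.28 (adjusted p = 0.00321), and XBP1 did not pass the test (adjusted p = 0.131). Heat shock genes gave 10 higher and 2 lower of 15 tested, with HSP90AA1 higher by 0.60 and HSPB1 lower, from 305, 308 and 298 CPM to 142, 141 and 140.1 CPM (-1.10 ± 0.11, adjusted p = 2.03e-08).

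The metallothioneins that could be tested, small proteins that bind zinc and copper, rose from near 0. Of 12 listed metallothionein and zinc transport genes, 7 were tested, and 4 were at 0 in all 6 libraries. Of the 7 tested, 5 rose, 4 of them DEGs, and 1 fell, where 24.4% of all tested genes rose and 25.1% fell. The risers and DEGs include MT1X and MT1E, which passed the filter only through groups where they were higher. The count is therefore a description and no support for a rise of the list. MT2A was at 0.713, 1.17 and 0.542 CPM in the model and 13.6, 13.9 and 13.4 CPM with RES, 16.8-fold higher (4.07 ± 0.35, adjusted p = 6.85e-10), and the Con libraries held at most 0.0578 CPM. MT1X had 0, 0 and 2 counts in the model libraries and 13, 11 and 13 with RES, and MT1E had 1, 3 and 1 and then 15, 11 and 25. Both lay under the filter's minimum of 10 counts in the model, so they could be tested only through groups with more. SLC30A1, the zinc exporter of the plasma membrane, rose from 16.3, 18.6 and 16.4 CPM to 55.2, 48.1 and 41.1 CPM (1.5 ± 0.15, adjusted p = 7.03e-09). SLC30A10, a manganese exporter, fell from 189, 188 and 180.3 CPM to 65.6, 66.3 and 62.2 CPM (-1.52 ± 0.08, adjusted p = 3.65e-14). The metallothionein genes are near copies of each other on chromosome 16, so single members are uncertain.

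The promoters of MT2A and MT1X are shown with the letters TGCACNC or TGCGCNC, the core of the metal response element, in capitals on either strand; this motif too was chosen after the data were seen.
MT2A, chr16:56608334-56608583, plus strand: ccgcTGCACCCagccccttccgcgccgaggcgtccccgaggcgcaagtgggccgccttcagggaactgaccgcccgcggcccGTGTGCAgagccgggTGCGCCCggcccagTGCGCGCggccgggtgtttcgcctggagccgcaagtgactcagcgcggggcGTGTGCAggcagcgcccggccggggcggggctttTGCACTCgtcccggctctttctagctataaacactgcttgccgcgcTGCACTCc
MT1X, chr16:56682220-56682469, plus strand: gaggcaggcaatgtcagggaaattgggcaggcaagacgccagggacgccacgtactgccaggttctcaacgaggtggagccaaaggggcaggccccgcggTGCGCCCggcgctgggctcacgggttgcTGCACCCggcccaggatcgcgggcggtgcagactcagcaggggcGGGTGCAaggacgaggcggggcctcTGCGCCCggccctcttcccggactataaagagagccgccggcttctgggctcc
MT2A held 7 matches and MT1X 4 within these bases. SLC30A1 also held a match, which made 3 of the 5 list promoters found in RefSeq.

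Of 30 tested immediate early genes, 6 rose and 7 fell, shares no higher than the 24.4% and 25.1% of all tested genes. EGR1 rose from 875, 918 and 955 CPM to 1312, 1389 and 1285 CPM (0.54 ± 0.09, adjusted p = 2.02e-05) and KLF4 by 1.52, while KLF6 fell from 818, 982 and 859 CPM to 539, 533 and 464 CPM (-0.79 ± 0.10, adjusted p = 2.33e-07), close to the Con range of 487 to 613 CPM. EGR2, which the study followed under its own compound, was at 6.74, 5.95 and 8.5 CPM in the model and 5.65, 6.73 and 4.38 CPM with RES (-0.34 ± 0.19, adjusted p = 0.134), with overlapping libraries. NR4A1 fell by 0.45 (adjusted p = 0.0163), which did not hold without Model_1 or RES_2 (adjusted p = 0.0525 and 0.0805) or in DESeq2 on all 18 libraries (0.075).

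YAP and TGF-beta targets were mostly lower, 14 of 19 tested against 2 higher (median -0.473). TGFB2, a ligand of the pathway, fell from 12.3, 13.2 and 11.5 CPM to 3.15, 2.91 and 4.25 CPM (-1.84 ± 0.17, adjusted p = 1.78e-09), and ANKRD1, a YAP target, fell from 41.5, 61.9 and 42.4 CPM to 13.9, 11.2 and 17.1 CPM (-1.78 ± 0.24, adjusted p = 1.64e-06). CCN2, a matrix protein linked to fibrosis, fell from 745, 773 and 807 CPM to 547, 536 and 569 CPM (-0.49 ± 0.09, adjusted p = 4.04e-05) and stayed above its level in Con, 325 to 331 CPM. TGFBI fell by 1.21.

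Of 21 tested inflammation genes, 6 rose and 7 fell, not far from the 24.4% and 25.1% of all tested genes. CXCL1, a neutrophil attractant, was at 21.7 to 30.8 CPM in Con and 95.6, 123 and 108 CPM in the model (2.12, adjusted p = 3.97e-06), and was at 51, 42.3 and 58.6 CPM with RES (-1.10 ± 0.25, adjusted p = 0.000714). CXCL10 and TNFAIP3 also fell, by 1.42 and 1.03. CXCL8, interleukin 8, was raised by FFA too (2.30, adjusted p = 9.75e-06), yet stood at 212, 303 and 229.7 CPM in the model and 231, 195 and 297 CPM with RES (adjusted p = 0.915). IL18 rose by 0.80 (adjusted p = 0.00351), and IL6, TNF, IL1B and CCL2 were too low to be tested. Interferon-stimulated genes gave 4 higher and 1 lower of 16, where 24.4% of all tested genes rose and 25.1% fell. Among them IRF1 was higher by 1.28.

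Growth and cell cycle genes changed by small amounts, apart from inhibitors of cyclin-dependent kinases. CDKN1C, the imprinted inhibitor p57, fell from 187, 155 and 170.3 CPM to 33.5, 31.6 and 30.9 CPM (-2.42 ± 0.11, adjusted p = 1.1e-14). CDKN1A, the inhibitor p21, rose from 22, 17.5 and 22.4 CPM to 53.7, 52.3 and 35.1 CPM (1.19 ± 0.14, adjusted p = 1.68e-07), and CDKN2B by 0.79. Of 19 tested growth arrest genes, 9 rose and 3 fell. Of 36 replication and mitosis genes, 13 rose and 3 fell and none was a DEG. BUB1, of the spindle checkpoint, rose by 0.82, CCNB1 by 0.49 and MKI67, the proliferation marker, by 0.32, while CCND1, cyclin D1, fell from 68.5, 77.3 and 69.6 CPM to 46.9, 38.3 and 44.9 CPM (-0.73 ± 0.09, adjusted p = 5.8e-07).

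No gene of the ribosome, the nuclear part of the respiratory chain or the proteasome was a DEG. Of 51 cytosolic ribosomal protein genes, 13 rose and 2 fell, of 41 nuclear genes of the respiratory chain 12 rose and 1 fell, where 24.4% of all tested genes rose and 25.1% fell. The median of each of these 2 lists was 0.137, beside 0.00233 over all tested genes, all with the TMM factors. Of 31 proteasome genes, 16 rose and none fell (median 0.199), with PSMA1 higher by 0.46 and PSMD14 by 0.43. Of the 13 genes of the mitochondrial genome, none rose and 3 fell, with ND1 lower by 0.61 and COX1 by 0.33, the latter lost without Model_3 or RES_3 (adjusted p = 0.0659 and 0.107). Autophagy and lysosome genes gave 12 higher and 2 lower of 22. SQSTM1, the cargo receptor p62, rose from 144, 161 and 146 CPM to 331, 328 and 288 CPM (1.07 ± 0.12, adjusted p = 1.12e-07), and CTSD, cathepsin D, fell by 1.21.

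**Figure D5:**
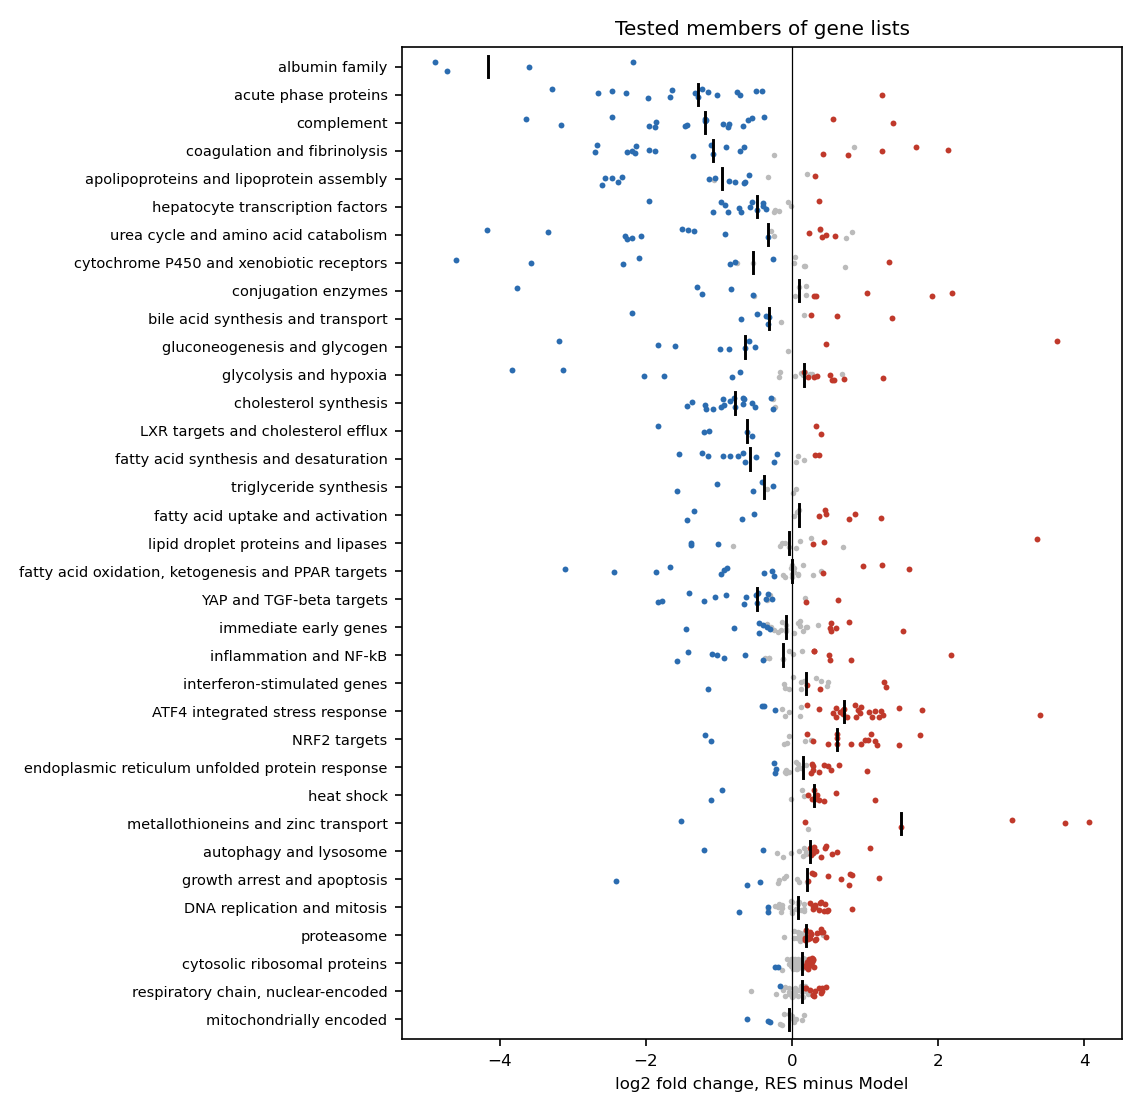
Log2 fold change of RES against the model for every tested member of each gene list (dots), in red or blue where the adjusted p was under 0.05 and the gene was higher or lower, in grey otherwise; black bars are medians. The albumin family has the lowest median (-4.16) and the metallothionein and zinc list the highest (1.5). Of the 12 genes on the latter list 7 were tested, among them MT1X and MT1E, whose model counts were below the filter's minimum of 10. Both count towards its median of 1.5.

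The largest rises by rule began from low levels. UNC5B, a netrin receptor, was at 0.165, 0.501 and 0.217 CPM in the model and 10.1, 10.7 and 8.12 CPM with RES, 32.1-fold higher (5 ± 0.30, adjusted p = 1.15e-12). TNFRSF9, a co-stimulatory receptor, rose by 4.25, and ANXA1, annexin A1, by 4.10. NIBAN1, a stress-induced protein, rose from 2.69, 2.95 and 3.57 CPM to 38.4, 46.8 and 44.3 CPM (3.81 ± 0.15, adjusted p = 1.25e-15), and LAMP3, a lysosomal membrane protein, from 2.19, 2.17 and 2.76 CPM to 28.9, 31.1 and 34.2 CPM (3.72 ± 0.16, adjusted p = 3.9e-15). The others with a mean of at least 1 CPM were ENDOD1, SLC16A6, LONRF2, RAB39B, KNDC1 and LEF1, the last a Wnt pathway factor, at log2 fold changes of 3.02 to 3.61, beside MT2A, IGFBP1, ALDH1L2 and G0S2, described above. For UNC5B, TNFRSF9, NIBAN1 and LEF1 the model against Con did not pass the test, which does not show that FFA left them unchanged.

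Among the largest falls, LINC02532, a long non-coding RNA, went from 34.2, 30.6 and 31.7 CPM to 0.888, 1.08 and 1.96 CPM, 24.6-fold lower (-4.62 ± 0.16, adjusted p = 5.33e-17). HSD17B2, which inactivates sex steroids, fell from 18.5, 13.7 and 19.8 CPM to 1.21, 1.24 and 1.26 CPM (-3.80 ± 0.23, adjusted p = 9.51e-13). EDNRB, the endothelin B receptor, had 36, 35 and 42 counts in the model libraries and 0, 2 and 2 with RES. MUC6, FRMD1, SLC13A2, LINC01451 and PTGER3 fell by 3.73 to 4.22, and PODN and FXYD2 were at 3 counts or fewer in each RES library. PDGFRB, a receptor counted among the stellate cell markers, fell from 14.2, 10.7 and 12 CPM to 1.21, 0.915 and 1.35 CPM (-3.39 ± 0.17, adjusted p = 6.37e-14).

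DEGs of the same direction also lay side by side. Among tested genes with a position, 35 runs of at least 3 neighbouring DEGs of a direction were found, 30 lower and 5 higher, and the longest held 6 genes, from DUSP8 to TNNI2 on chromosome 11. The next run on that arm holds MRPL23-AS1, H19, IGF2, MIR483 and IGF2-AS, and the albumin run holds ALB, AFP, AFM and LINC02499. C7 and C6 form a run with PLCXD3 and OXCT1 on chromosome 5, in which OXCT1 lost its call without Model_1, RES_2 or RES_3 (adjusted p = 0.195, 0.0679 and 0.0535), and C7 had 21, 18 and 17 counts in the model and 0, 2 and 0 with RES. Runs can hold genes that overlap or face each other, such as SCTR with SCTR-AS1, whose reads cannot be told apart without strand. In the SERPINA family on chromosome 14, SERPINA5 fell by 1.66, SERPINA6, the cortisol carrier, by 1.23 and SERPINA4 by 1.08, while SERPINA1 fell by 0.49.

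The median GC content was 52.6% for lower DEGs, 46% for higher DEGs and 47.8% for all tested genes. Among genes with a RefSeq entry, long non-coding RNAs made up 103 of 1000 lower DEGs (10.3%), 25 of 434 higher DEGs (5.76%) and 942 of 14463 tested genes (6.51%). The median level was 6.2 CPM in the model and 1.79 CPM with RES for lower DEGs, and 1.45 and 4.47 CPM for higher DEGs, where all tested genes had 23.1 and 23.5 CPM. The levels follow from how the DEGs were chosen, and all of these values are descriptions.

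Promoters were searched for a thyroid element by its exact letters only. The direct repeat of AGGTCA spaced by 4 bases, which the receptor and its retinoid partner bind, was in 0% of the 11524 promoters of tested genes, and the single hexamer AGGTCA was in 10% of them, 12.3% of 349 higher and 11.2% of 747 lower DEGs. The windows ran from 250 bases before to 50 after the start, were searched on both strands, and say nothing of more distant elements. With every letter of both repeats fixed, the search could miss variant elements, so the 0% does not show that thyroid elements are absent. GTTAAT was in 3.96% of all promoters, 3.72% of higher and 9.24% of lower DEGs. The ATF4 element was in 1.76%, 4.58% and 2.81%. The NRF2 element was in 15.1%, 13.5% and 13.3%, the sterol element CACNCCAC in 5.89%, 4.3% and 7.63%, CACGTG in 9.99%, 5.44% and 8.7%, and CCAAT in 36.5%, 32.1% and 32.1%. The metal element was in 38.7%, 39% and 30%, so its presence in metallothionein promoters is a common property by itself. No test was run on these shares.

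RES and FUCO were set side by side for the genes named above, with the limits that the RES dose is unknown and that all arms share the model libraries. KLF9, CPT1A and ME1 were higher in RES than in 1 μM FUCO by 2.43, 1.39 and 1.85 on the log2 scale, each with an adjusted p under 0.05. EGR2, whose mean level was 0.976, 0.604 and 1.58 CPM at 0.5, 1 and 2 μM FUCO, was higher in RES by 3.18 (adjusted p = 9.65e-10). CCN2 was at a mean of 306, 252 and 345 CPM with rising FUCO dose and higher in RES than at 1 μM by 1.13 (adjusted p = 1.09e-10). IGFBP1 was at 3.67, 5.35 and 9.31 CPM and higher in RES by 4.47 (adjusted p = 2.66e-14). MT2A was at a mean of 2.39, 4.72 and 31 CPM with FUCO, so at 2 μM it lay above the 13.4 to 13.9 CPM of the RES libraries, and it was higher in RES than at 1 μM by 1.53 (adjusted p = 2.3e-05). HSPA6, a strictly inducible heat shock gene, was at 0.921, 1.86 and 9.01 CPM with FUCO and 1.26 to 1.56 CPM with RES (RES against 1 μM adjusted p = 0.153), and HMOX1 at 24.4, 35.5 and 79.7 CPM (adjusted p = 0.0537). Against 1 μM FUCO, RES had log2 differences of -2 for ALB, -4.45 for AFP and -3.29 for IGF2.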

How the data were processed

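RNA of Hep3B cells was sequenced in 18 libraries, 3 in each of 6 groups, and each library was assigned to its group by its title. The authors enriched polyadenylated RNA, trimmed paired-end reads with fastp, aligned them with STAR to GRCh38.p14 and counted reads per gene with featureCounts. They deposited raw counts by gene symbol, with no normalization. Strand setting and treatment of reads with several matches are not given in the sources used here, so overlapping genes and close copies are uncertain. Library totals ran from 16916688 to 23083498 counts; reads carry no molecular identifiers, so a floor of 3 counts covers counting error only.

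From these counts, R 4.3.3 with edgeR 4.0.16 gave the filter (filterByExpr, minimum count 10, minimum total 15), TMM normalization, and quasi-likelihood tests on the 18 libraries together, each group having its own term (prior count 0.125), with p-values adjusted by Benjamini-Hochberg over 14557 genes. The study's own tool, DESeq2 (1.42.0), was an alternative, beside other normalizations, filters, library subsets, a replicate block and leaving out each library. The members and gene lists were chosen with earlier results of these data known. Genes named by rule were the 15 highest-rising and 15 deepest-falling DEGs (mean of at least 1 CPM, no overlap between the groups), the 10 most abundant DEGs, the thyroid genes, the genes the study names, up to 5 members of each other list, and members of clusters or runs of neighbours. Other list members named in the text were chosen after their values were seen. Some members of the lists are not reported here by name. Gene positions, promoters and classes came from RefSeq tables of GRCh38.p14; promoters were found for 11524 tested genes. The fits were tested on simulated data.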

Additional observations from a re-analysis of the deposited data

How the results depend on the processing

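Of the 225 genes named with values, 177 could be tested in all 19 alternatives, and 71 of these kept their direction and their side of the threshold in each. Of the 48 tested in fewer alternatives, 38 did so in each of those. The alternatives include a test against the fold threshold itself (glmTreat), which asks a stricter question and which smaller changes cannot pass. PHGDH, EGR1 and APOB, for example, were the same in 18 of 19 alternatives and lost their calls in glmTreat alone. DESeq2 on all 18 libraries called 1502 DEGs, DESeq2 and edgeR on the 6 libraries alone called 1423 and 1331, and leaving out 1 library gave 1417 to 1505, against 1443. Requiring at least 10 counts in every library, which tests fewer genes, left 925 DEGs, 239 of them higher. The glmTreat test left 594 genes, 139 higher and 455 lower. Total counts without normalization factors, an alternative chosen after seeing the data, moved the median of all genes to 0.14 on the log2 scale and turned the sign of ATF4 (0.036) and PLIN2 (0.037). CXCL8 turned to 0.091 with total counts and ranged from -0.22 to 0.13 when 1 library was left out, and G6PC1 ranged from -0.88 (without RES_1) to 0.29 (without Model_1). None of these 4 genes passed the test in the alternatives that turned its sign, and the cause was not tested. The replicate numbers did not pair the samples: same-numbered RES and Model libraries had correlations of 0.02, -0.045 and 0.065 in their deviations from the group means. With the replicate number as a block, 1453 DEGs were called, 1437 of them among the 1443, CXCL8 stood at 0.010, and THRB and PKM passed the test (adjusted p = 0.0377 and 0.0478). APOA2, FOXA2, PMVK, CYP51A1, AARS1 and XBP1, which missed the threshold, passed it on the 6 libraries alone in both DESeq2 and edgeR. With total counts APOA2, AARS1, XBP1, HMOX1, PNPLA2, RXRB and NCOR1 passed, and ACACA, NR4A1, PPARA, DHCR7 and COX1 lost their calls. Depth limits the genes with few counts, where a library at 0 gives only a bound on the fold.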
